A study of Homo sapiens with 6 samples.

Results

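The genes described here are 47 genes of autophagy and the lysosome, picked by symbol for their role, out of 79302 rows of a gene count table. No measured value enters the rule that picks them, but the list was drawn up with earlier results of these libraries known. They comprise 23 autophagy genes, 21 lysosome genes and the 3 MiT/TFE transcription factors TFEB, TFE3 and MITF. All 47 were matched by Ensembl identifier and all 47 passed the filter on low counts. The counts come from HCT116, a human colorectal cancer cell line. There were 3 libraries from control cells (shCtrl, genotype labelled control) and 3 from cells with an shRNA against GDPD5 (shGDPD5). Both groups carried an shRNA. Per the results text of the study, both were radioresistant and had been irradiated hours before collection, so no unirradiated or parental cells are among the groups. Which of the study's shRNA sequences was used was not stated, and no second line was sequenced. Nothing in the labels ties the libraries to separate cultures. The p-values therefore measure only the spread between libraries, which may be technical.

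Macroautophagy encloses cytoplasm in a double membrane that forms when the ULK1 kinase complex and a lipid kinase complex built on BECN1 are activated, and closes with the help of lipid-bound ATG8 proteins such as LC3. Receptors tie cargo to those ATG8 proteins, and the finished autophagosome fuses with the lysosome, where hydrolases work in the acid made by the V-ATPase proton pump. TFEB, TFE3 and MITF bind the CLEAR element, an E-box found at many lysosomal genes, and drive their transcription when they enter the nucleus. Tumour cells can use this route to recycle nutrients and to remove damaged mitochondria.

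The libraries held 16715447 to 18510670 estimated counts each. In the shGDPD5 libraries GDPD5, a glycerophosphodiester phosphodiesterase, stood at 5.44, 5.55 and 5.19 CPM (counts scaled to library size and composition) against 8.33, 11.6 and 9.75 in shCtrl. Its mean was 54.5% of control, with a log2 fold change of -0.88 ± 0.13 (SE) and an adjusted p of 0.000116 in edgeR's quasi-likelihood test. Levels are shares of the RNA in a library, and in bulk RNA fewer cells of a type and less RNA per cell cannot be told apart. All 9 epithelial markers tested were called lower in shGDPD5 at an adjusted p under 0.05, where 30.1% of all genes tested were. The groups stood apart for 8 of them and overlapped for KRT8. Summed over all 11 listed markers and scaled to library size only, the level was 2831 to 2967 CPM against 3494 to 4000 in shCtrl. Of these, VIL1 had 0 to 10 counts and CDX1 had 0 in every library. Transcripts of 37 mitochondrially encoded genes took 12.2 to 12.9% of counts in shGDPD5 and 10.9 to 11.4% in shCtrl. Their part in the results was not tested.

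Of the 47 genes, 40 differed between shGDPD5 and shCtrl at an adjusted p under 0.05. That is 85.1%, where 59.7% of all 16755 genes tested did. Higher in shGDPD5 were 18 genes (38.3%, against 29.7% of all genes), and 22 genes were lower (46.8%, against 30.1%). Among genes with a mean of at least 10 CPM, a limit chosen after the values were seen, 38 of 43 members (88.4%) and 70.2% of all genes were called. The changes were mostly modest. The median absolute log2 fold change was 0.40 over the members and 0.36 over all genes tested. The libraries of the groups did not overlap for 41 members (87.2%, against 64.9% of all genes). A further limit was an unadjusted p under 0.05 in edgeR's test and a log2 change of 1 or more in either direction. It was passed by 7 members (14.9%, against 12.0% of all genes tested). GLA and MCOLN1 were higher, and CD68, BNIP3L, BNIP3, GAA and WIPI1 were lower. These thresholds are those of the study, but the study names a t test, so the genes passing need not be the same. Just outside the log2 limit lay MAP1LC3B, at -0.98, and just inside it WIPI1, at -1.04.

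**Figure D1:**
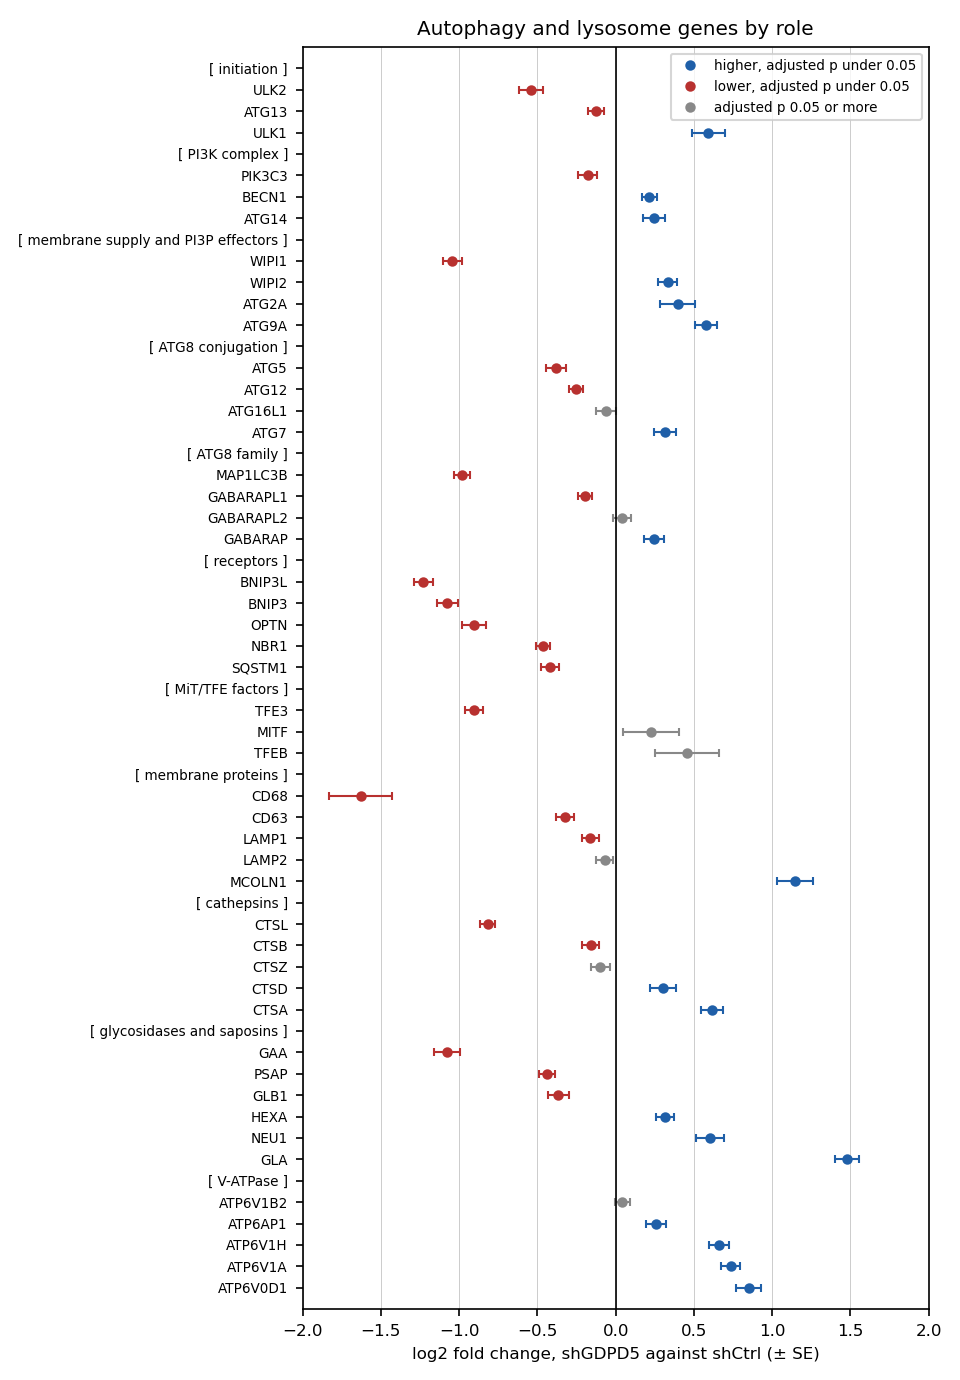
Log2 fold change of each of the 47 genes in shGDPD5 against shCtrl (x axis, bars ± SE from edgeR), with genes in rows grouped by role. Genes called at an adjusted p under 0.05 are blue where higher and red where lower, and the 7 genes in grey were not called. Every receptor lies to the left of 0, and 4 of 5 V-ATPase genes are blue.

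Among the 3 transcription factors only TFE3 passed the test, and it fell. TFE3, on chromosome X from 49028726 to 49043486 (GRCh38, minus strand), measured 52.6, 54.7 and 55.6 CPM in shCtrl and 28.2, 29.4 and 29.3 CPM in shGDPD5. The shGDPD5 libraries stood close together and well below every control. The mean was 53.3% of control, a log2 fold change of -0.91 ± 0.06 (adjusted p = 4.12e-08). TFEB, regarded as the chief regulator of lysosome formation, was scarce, at 1.51, 2.20 and 1.79 CPM in shCtrl and 2.81, 2.51 and 2.26 CPM in shGDPD5. The groups did not overlap, but with 26 to 48 counts a library the difference of 0.46 ± 0.20 on the log2 scale did not pass (adjusted p = 0.0719). With a library left out in turn it ranged from 0.33 to 0.60 and passed only without shCtrl replicate 2 (0.60, adjusted p = 0.0443), the other adjusted p-values being 0.0772 to 0.204. MITF, the melanocyte factor of the family, read 2.85, 3.39 and 3.11 CPM in shCtrl and 3.86, 4.22 and 2.88 CPM in shGDPD5, and its groups overlapped (adjusted p = 0.295). Per kilobase of exon, TFE3 exceeded TFEB by ratios of 45.8, 32.8 and 41.0 in the controls. In shGDPD5 these ratios were 13.3, 15.4 and 17.1, each below the lowest control.

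The promoters of the members were searched for the CLEAR element. RefSeq promoter sequences (GRCh38.p14, 250 bases before to 50 after each start) were on hand for 39 of the 47 members, 56 promoters in all, the other 8 being ATP6V1A, ATP6V1B2, ATP6V1H, BNIP3L, CTSB, HEXA, LAMP2 and PSAP. The letters TCACGTGA, read on both strands (the word is its own reverse complement), occurred in 5 member promoters and in 0.980% of all 35116 promoters. All 5 belonged to lysosome genes, 5 of 14 genes and 23.8% of their 21 promoters, and none of the 28 autophagy promoters held them. The 5 windows are shown because the genes that carry the same letters moved in both directions. Capitals mark the element, and each window is written 5′ to 3′ along the gene's strand.
LAMP1, chr13:113297190-113297264, plus strand, lower in shGDPD5: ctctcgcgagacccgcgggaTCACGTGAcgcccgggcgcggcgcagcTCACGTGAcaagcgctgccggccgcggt
ATP6V0D1, chr16:67481190-67481237, minus strand, higher: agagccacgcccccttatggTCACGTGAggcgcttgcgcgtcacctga
GAA, chr17:80101484-80101576, plus strand, lower: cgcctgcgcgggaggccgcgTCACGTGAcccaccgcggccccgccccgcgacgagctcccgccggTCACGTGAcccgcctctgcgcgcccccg
MCOLN1, chr19:7522562-7522636, plus strand, higher: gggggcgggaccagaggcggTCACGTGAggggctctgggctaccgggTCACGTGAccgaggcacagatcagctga
CTSA, chr20:45891289-45891336, plus strand, higher: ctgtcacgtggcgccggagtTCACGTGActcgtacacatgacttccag

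Counted from the first transcribed base as +1, the elements began at -29 and -2 in LAMP1, -60 in ATP6V0D1, -77 and -32 in GAA, -42 and -15 in MCOLN1 and -26 in CTSA. LAMP1, GAA and MCOLN1 thus hold the letters in pairs. Of the 5 genes MCOLN1, ATP6V0D1 and CTSA rose, while GAA and LAMP1 fell, LAMP1 by a small difference that did not hold without some of the libraries. The shorter E-box CACGTG, which lies within TCACGTGA, was in 10 of the 56 promoters (17.9%, against 7.26% of all). ACGTG, the core that hypoxia-inducible factors bind and part of both longer words, was in 41.1% against 21.4%. CACGTG was in 37.5% of the 16 promoters of members called higher and in 12.9% of the 31 of members called lower. For ACGTG these shares were 62.5% and 32.3%. Some genes have several promoters, mostly among those called lower, and counted by gene the gaps were smaller. CACGTG was then in 6 of 15 genes called higher and 4 of 19 called lower, and ACGTG in 10 of 15 and 7 of 19. A link of the letters to the direction of change was not tested. BNIP3, a mitophagy receptor induced by hypoxia, holds the E-box at -134. Its window was picked after the values were seen, because its gene was among those that fell most.
BNIP3, chr10:131982032-131982077, minus strand, lower: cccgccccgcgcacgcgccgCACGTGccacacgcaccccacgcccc

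The antioxidant element TGACNNNGC was found in 17.9% of member promoters and 13.3% of all. TGATGCAA, an ATF4 element, was in 0 of 56 (0.866% of all) and GTAAACA, a FOXO element, in CTSL alone (3.42% of all). A match of letters is a description of the window and does not show binding.

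The kinases that start autophagy moved apart. ULK1, on chromosome 12 from 131894651 to 131923167, rose from 17.0, 19.7 and 19.1 CPM in shCtrl to 32.1, 24.0 and 28.3 CPM in shGDPD5. Its groups did not overlap, although the shGDPD5 libraries were spread widely (28.1 ± 4.09 CPM, SD, n = 3, against 18.6 ± 1.42). The log2 fold change was 0.59 ± 0.10 (adjusted p = 0.000312). ULK2, its paralog, fell from 19.7, 21.5 and 20.2 CPM to 14.1, 14.3 and 13.8 CPM, a change of -0.54 ± 0.08 (adjusted p = 5.96e-05). Every ULK2 value in shGDPD5 was below every control. Per kilobase, the ratio of ULK1 to ULK2 was 1.12, 1.19 and 1.22 in the controls and 2.94, 2.18 and 2.65 in shGDPD5. The scaffold ATG13 measured 74.8, 78.0 and 78.3 CPM against 68.6, 70.7 and 72.3. This small difference (-0.13 ± 0.05, adjusted p = 0.0434) passed only narrowly and did not pass when any of 5 libraries was left out, with adjusted p-values up to 0.168.

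The lipid kinase complex showed small changes in both directions. BECN1, its regulatory core, rose from 85.3, 86.1 and 86.1 CPM to 98.7, 96.8 and 103 CPM (log2 fold change 0.21 ± 0.05, adjusted p = 0.00202). ATG14, which directs the complex to autophagy, measured 29.2, 26.5 and 25.3 CPM in shCtrl and 30.4, 32.4 and 33.2 CPM in shGDPD5 (0.25 ± 0.07, adjusted p = 0.00963). PIK3C3, the catalytic subunit, fell from 55.6, 50.1 and 49.7 CPM to 45.9, 44.9 and 46.5 CPM (-0.18 ± 0.06, adjusted p = 0.0222). No control overlapped an shGDPD5 library for any of these genes. The PIK3C3 call did not hold when any of the shGDPD5 libraries was left out (adjusted p of 0.0510 to 0.0657), and that of ATG14 did not hold without shGDPD5 replicate 3 (0.0516).

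Of the genes that supply lipid or read the lipid signal PI3P, 3 rose and WIPI1 fell. WIPI1, a PI3P-binding protein on chromosome 17 from 68420948 to 68457513, measured 38.6, 37.1 and 39.8 CPM in shCtrl and 18.4, 18.9 and 18.7 CPM in shGDPD5. These values were tight within each group and far apart between them, at 48.5% of control (log2 fold change -1.04 ± 0.06, adjusted p = 2.99e-08). Its paralog WIPI2, which recruits the ATG16L1 complex, rose by 0.33 ± 0.06 (adjusted p = 0.000427). ATG9A, the scramblase carried by seed vesicles, rose from 34.0, 37.8 and 40.8 CPM to 55.5, 56.9 and 55.6 CPM (0.58 ± 0.07, adjusted p = 1.09e-05). ATG2A, the lipid transfer protein, rose from 10.3, 12.2 and 12.6 CPM to 16.5, 13.6 and 16.2 CPM (0.40 ± 0.11, adjusted p = 0.00736). Neither gene had a control within the range of shGDPD5.

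The genes that attach ATG8 proteins to lipid changed modestly, in both directions. ATG5 fell from 74.0, 62.6 and 70.1 CPM to 52.6, 53.1 and 53.2 CPM (-0.38 ± 0.06, adjusted p = 0.000248). Its conjugation partner ATG12 fell from 325, 300 and 308 CPM to 261, 264 and 256 CPM (-0.26 ± 0.05, adjusted p = 0.00037). ATG7, the activating enzyme, rose instead, from 19.9, 20.1 and 19.3 CPM to 25.9, 24.0 and 24.0 CPM (0.32 ± 0.07, adjusted p = 0.00171). ATG16L1, which places the conjugate on the membrane, had overlapping groups and a log2 fold change of -0.06 (adjusted p = 0.412).

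Within the ATG8 family the largest change was in MAP1LC3B, the gene of LC3B, on chromosome 16 from 87383995 to 87404779. It fell from 371, 328 and 344 CPM in shCtrl to 176, 174 and 178 CPM in shGDPD5. The mean went from 348 ± 21.7 to 176 ± 1.64 CPM (SD, n = 3), 50.6% of control, with a log2 fold change of -0.98 ± 0.05 (adjusted p = 7.76e-09). The control libraries were spread more widely than the shGDPD5 libraries, and the groups lay far apart. GABARAP, of the other branch of the family, rose from 80.5, 78.5 and 87.0 CPM to 89.9, 105 and 97.1 CPM (0.25 ± 0.06, adjusted p = 0.00513). GABARAPL1 fell from 92.6, 94.2 and 92.7 CPM to 80.0, 81.1 and 82.9 CPM (-0.20 ± 0.05, adjusted p = 0.00301), and GABARAPL2 did not pass (0.04, adjusted p = 0.571). Per kilobase, MAP1LC3B exceeded GABARAP in every control, by ratios of 1.97, 1.78 and 1.69, and lay below it in every shGDPD5 library, at 0.836, 0.708 and 0.781. Summed over the 4 genes the level went from 586.3 to 419.6 CPM, of which MAP1LC3B made up 59.4% in shCtrl. MAP1LC3B has a named pseudogene and a near-identical copy gene, and reads may have been split between them.

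All 5 autophagy receptors fell, where 30.1% of all genes tested were lower. BNIP3L (NIX), which marks mitochondria for removal, went from 125, 113 and 111 CPM in shCtrl to 51.1, 48.9 and 49.1 CPM in shGDPD5, 42.7% of control (log2 fold change -1.23 ± 0.06, adjusted p = 4.11e-09). Its relative BNIP3 fell from 50.4, 47.3 and 45.9 CPM to 24.2, 22.5 and 21.4 CPM, 47.4% of control (-1.08 ± 0.07, adjusted p = 3.96e-08). Every shGDPD5 library lay far below the lowest control for both mitophagy receptors. OPTN, a receptor for ubiquitin-coated mitochondria and bacteria, fell from 51.0, 49.5 and 43.7 CPM to 25.9, 23.7 and 27.3 CPM (-0.91 ± 0.08, adjusted p = 5.86e-07). SQSTM1 (p62), the receptor for ubiquitinated protein, on chromosome 5 from 179806398 to 179838078, measured 469, 544 and 551 CPM against 385, 393 and 390. It fell by a smaller amount, -0.42 ± 0.06 (adjusted p = 4.37e-05), with every shGDPD5 library below the lowest control. NBR1, which works with p62, changed by -0.46 ± 0.05 (adjusted p = 2.41e-06). The summed level of the 5 receptors went from 930.1 ± 30.1 to 630.1 ± 5.40 CPM (SD, n = 3), 67.7% of control, and SQSTM1 supplied 56.1% of it in shCtrl. BNIP3 has 39 named pseudogenes and SQSTM1 has 1, so their counts, above all those of BNIP3, are less certain than those of the other receptors.

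**Figure D2:**
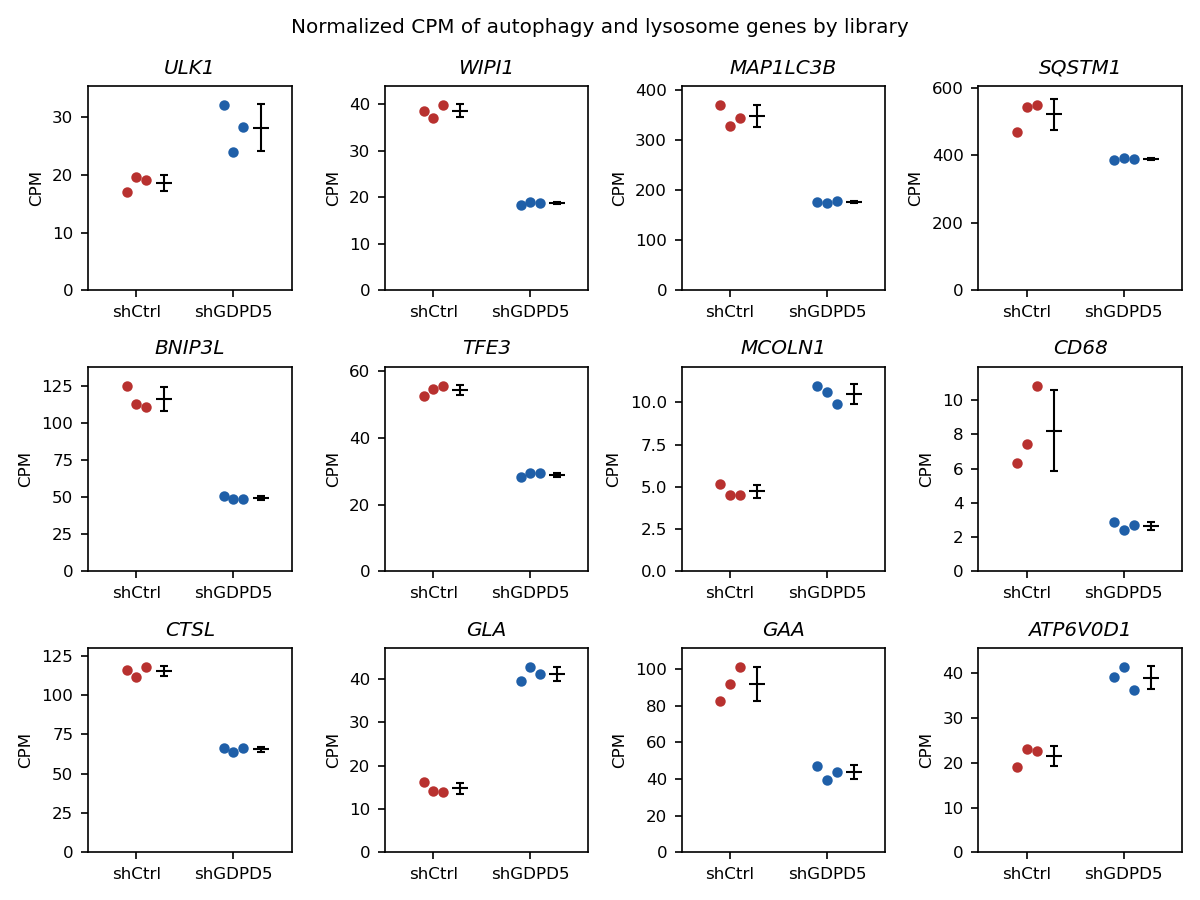
CPM of 12 of the genes in each library (y axes, linear and starting at 0), shCtrl in red and shGDPD5 in blue, with the mean and its SD over 3 libraries as a bar beside the points. The groups are apart in all 12 panels, upward for ULK1, MCOLN1, GLA and ATP6V0D1 and downward for the other 8. Most of the 12 are among the largest changes of their role, so this follows largely from the choice of genes. Of all genes tested, the groups were apart for 64.9%.

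Lysosomal membrane proteins held the largest decrease among the 47 genes and, in MCOLN1, a large increase. CD68, a heavily glycosylated lysosomal protein best known from macrophages, fell from 6.35, 7.45 and 10.8 CPM in shCtrl to 2.86, 2.40 and 2.71 CPM in shGDPD5. Its mean was 32.4% of control (log2 fold change -1.63 ± 0.20, adjusted p = 1.82e-05), on 45 to 188 counts a library. Its exons overlap other genes on both strands, so these counts may be shared. The controls differed widely among themselves and shCtrl replicate 3 stood highest, yet no library overlapped, and without that replicate the change was -1.38. Macrophage and leukocyte markers were near 0. Over 11 genes, scaled to library size only, they summed to 1.08 to 1.77 CPM in shCtrl and 1.26 to 1.51 CPM in shGDPD5. CD163, FCGR3A, TYROBP, AIF1 and C1QA were at 0 in every library and PTPRC at 0 to 2 counts. MCOLN1, the calcium channel TRPML1, on chromosome 19 from 7522626 to 7534009, moved the other way, from 5.18, 4.51 and 4.50 CPM to 11.0, 10.6 and 9.87 CPM. It was 2.22-fold higher (1.15 ± 0.11, adjusted p = 2.75e-06), on 78 to 199 counts, and its exons overlap PNPLA6 on the same strand.

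CD63, a tetraspanin of late endosomes, fell from 167, 193 and 192 CPM to 145, 148 and 148 CPM (-0.32 ± 0.06, adjusted p = 0.000414). LAMP1, a main coat protein of the lysosomal membrane, measured 177, 200 and 196 CPM in shCtrl and 166, 178 and 169 CPM in shGDPD5, and the groups overlapped. Its difference of -0.16 ± 0.05 (adjusted p = 0.0229) did not pass when shCtrl replicate 2 or 3 or shGDPD5 replicate 1 or 3 was left out, with adjusted p-values of 0.0640 to 0.101. Its partner LAMP2 did not pass either (-0.07, adjusted p = 0.302).

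The cathepsins split as well. CTSL, a cysteine protease, on chromosome 9 from 87725519 to 87731393, fell from 116, 112 and 118 CPM to 66.3, 63.8 and 66.2 CPM, 56.8% of control (-0.82 ± 0.05, adjusted p = 2.82e-08). CTSA, a carboxypeptidase that also shields NEU1 and GLB1, rose from 55.6, 65.1 and 69.3 CPM to 96.5, 99.3 and 95.4 CPM (0.62 ± 0.07, adjusted p = 9.94e-06). CTSD, the aspartic protease, measured 62.5, 75.2 and 75.4 CPM against 91.9, 78.1 and 93.4 (0.31 ± 0.08, adjusted p = 0.007). For each of these genes the groups stood apart, CTSD by the narrowest gap. The ratio of CTSD to CTSL per kilobase was 0.409, 0.509 and 0.483 in shCtrl and 1.05, 0.926 and 1.07 in shGDPD5. CTSL has 6 named pseudogene entries and CTSD an exon overlap on the same strand, so their counts may be shared. CTSB, another cysteine protease, differed by -0.16 ± 0.05 (adjusted p = 0.0232), and this did not hold without shCtrl replicate 3 (0.101) or shGDPD5 replicate 1 (0.107). CTSZ did not pass (-0.10, adjusted p = 0.173), although it did without shCtrl replicate 1 (-0.15, adjusted p = 0.00763).

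Of the 6 glycosidases and saposins, 3 rose and 3 fell. GLA, the α-galactosidase missing in Fabry disease, on chromosome X from 101397803 to 101408012, rose from 16.3, 14.2 and 13.9 CPM in shCtrl to 39.5, 42.9 and 41.1 CPM in shGDPD5. This 2.78-fold difference (1.48 ± 0.08, adjusted p = 6.76e-09) was the largest increase among the 47 genes. GAA, the acid glucosidase that breaks down glycogen and is missing in Pompe disease, on chromosome 17 from 80101556 to 80119879, fell from 82.6, 92.1 and 101 CPM to 47.4, 39.6 and 44.1 CPM. Its mean was 47.5% of control (-1.08 ± 0.08, adjusted p = 2.42e-07). In the controls the per-kilobase ratio of GLA to GAA was below 1 throughout, at 0.447, 0.349 and 0.311, and in shGDPD5 it was above 1 throughout, at 1.89, 2.45 and 2.11.

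NEU1, the sialidase, rose from 14.5, 15.7 and 16.3 CPM to 21.0, 25.5 and 24.0 CPM (0.60 ± 0.09, adjusted p = 8.6e-05). HEXA, a β-hexosaminidase subunit, rose by 0.32 ± 0.06 (adjusted p = 0.000441), and GLB1, the β-galactosidase used as a senescence stain, changed by -0.37 ± 0.07 (adjusted p = 0.000467). PSAP, the precursor of the saposins that present lipid to these enzymes, went from 900 ± 67.3 to 665 ± 13.8 CPM (-0.44 ± 0.05, adjusted p = 1.58e-05). It made up 81.6% of the summed level of the group in shCtrl, so the sum fell to 77.2% of control with it.

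V-ATPase genes rose in 4 of 5 cases, where 29.7% of all genes tested were higher. ATP6V0D1, of the membrane sector, on chromosome 16 from 67438014 to 67481237, rose from 19.0, 23.1 and 22.6 CPM to 39.0, 41.4 and 36.3 CPM, 1.80-fold (0.85 ± 0.08, adjusted p = 2.15e-06). ATP6V1A, the catalytic subunit, rose from 65.3, 57.2 and 60.6 CPM to 100, 107 and 97.6 CPM, 1.66-fold (0.74 ± 0.06, adjusted p = 5.04e-07). ATP6V1H, which regulates the pump, rose from 22.4, 25.2 and 24.1 CPM to 37.7, 37.7 and 38.0 CPM (0.66 ± 0.06, adjusted p = 2.12e-06). For all 3 the lowest shGDPD5 library stood well above the highest control. ATP6AP1, an accessory subunit, rose by 0.26 ± 0.06 (adjusted p = 0.00351). ATP6V1B2, the non-catalytic partner of ATP6V1A, differed by 0.04 ± 0.05 (adjusted p = 0.442), and the ratio of ATP6V1A to ATP6V1B2 per kilobase was 1.20, 1.07 and 1.11 in shCtrl and 1.79, 1.96 and 1.72 in shGDPD5. The summed level of the 5 genes was 243.5 ± 4.40 CPM in shCtrl and 328.4 ± 3.43 CPM in shGDPD5 (SD, n = 3), 134.9% of control.

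Levels between genes were compared per kilobase of exon. In the controls PSAP stood highest by far, at 278 ± 20.8 CPM per kilobase (SD, n = 3). CD63 at 69.9 ± 5.70, SQSTM1 at 68.1 ± 5.90 and MAP1LC3B at 65.5 ± 4.09 followed, and these neighbours did not differ beyond their spread. CTSL came next, at 48.7 ± 1.35. The lowest were MCOLN1 at 1.20, MITF at 0.434 and TFEB at 0.325. GDPD5 itself was at 1.00 CPM per kilobase. In shGDPD5 GLA moved from rank 32 to rank 15 of 47, while GAA went from 16 to 28, TFE3 from 19 to 30, BNIP3L from 11 to 22 and CTSL from 5 to 11.

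**Figure D3:**
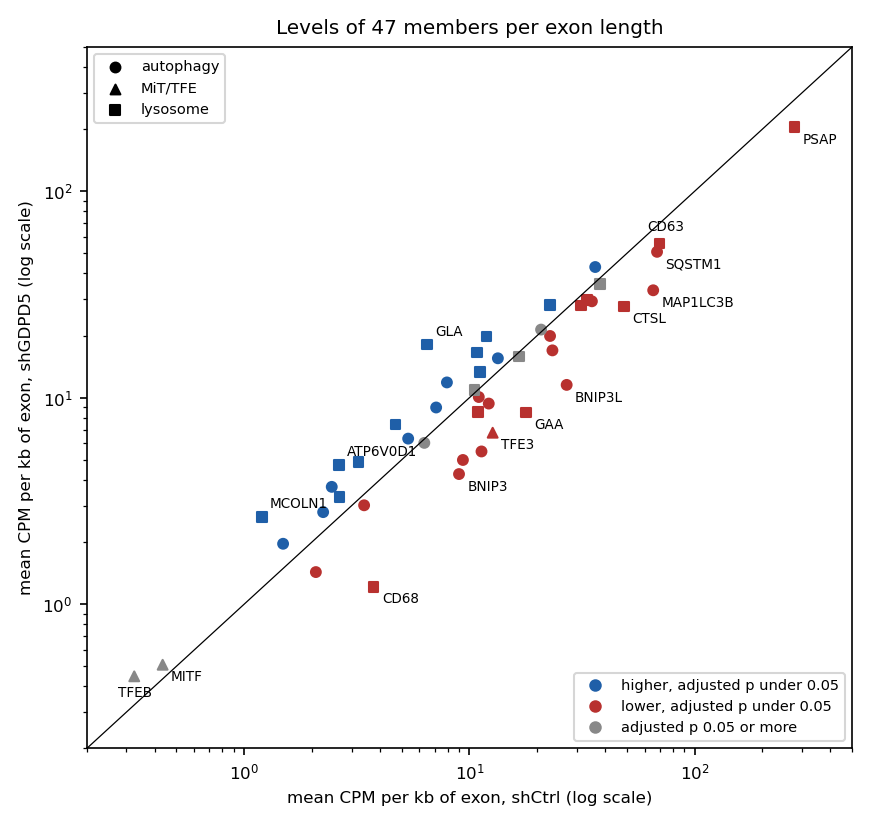
Mean CPM per kilobase of exon of the 47 genes in shCtrl (x axis) and shGDPD5 (y axis), both log scales, with the diagonal marking equal levels. Circles are autophagy genes, squares lysosome genes and triangles MiT/TFE factors, and colours give the call. PSAP lies at the top, TFEB and MITF at the bottom, GLA well above the diagonal and CD68, BNIP3L and MAP1LC3B below it.

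Autophagy and lysosome genes were then set side by side. Of the 23 autophagy genes, 8 rose and 13 fell (91.3% called), with a median log2 fold change of -0.18 and a range of -1.23 to 0.59. Of the 21 lysosome genes, 10 rose and 8 fell (85.7% called), with a median of 0.04 and a wider range, -1.63 to 1.48. Over all genes tested the median was 0.01, and 59.7% were called, 29.7% higher and 30.1% lower. The autophagy median in each library, relative to the control mean, was -0.17, -0.20 and -0.15 in shGDPD5 and between -0.0071 and 0.0058 in shCtrl. For lysosome genes it was 0.046, 0.017 and 0.068 in shGDPD5, within or next to the control range of -0.11 to 0.060. Thus the autophagy medians lay apart between groups, and the lysosome medians overlapped. Medians over all tested genes also lay apart, by far less, at 0.018, 0.0061 and 0.014 in shGDPD5 and 0.00039 to 0.0028 in shCtrl. Standing apart was therefore not particular to the autophagy genes.

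Single roles carried much of that contrast. The receptors had library medians of -0.88, -1.01 and -0.81 in shGDPD5, and without them 8 of the 18 other autophagy genes rose, 8 fell and the median was -0.01. V-ATPase genes had library medians of 0.66, 0.66 and 0.67. Summed over all members of a class, autophagy genes went from 2386 ± 19.9 to 1885 ± 11.8 CPM (79.0% of control) and lysosome genes from 2386 ± 139 to 2129 ± 21.1 CPM (89.2%), where the sums are weighted to the most abundant transcripts. In these sums the groups did not overlap for either class. No test of the difference between the classes was run, because the list was drawn up with earlier results known.

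**Figure D4:**
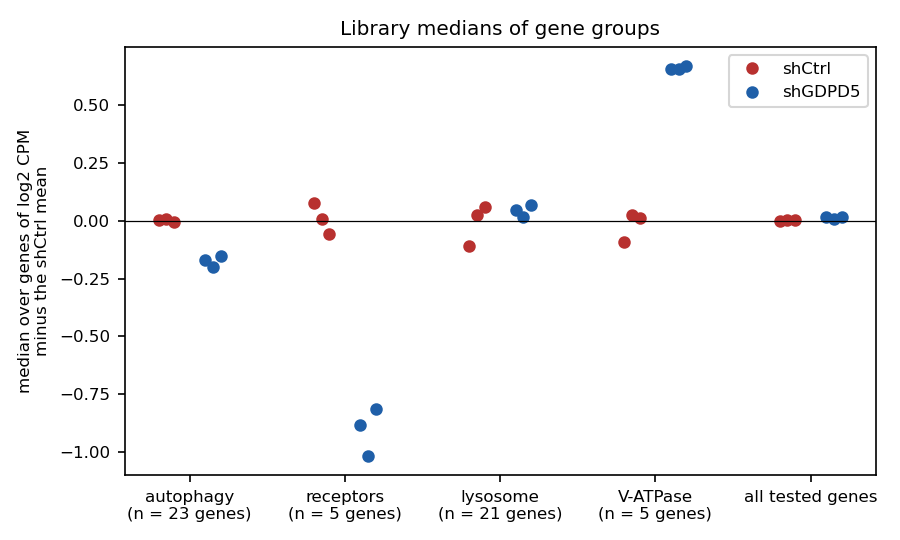
Median over the genes of a group of log2 CPM minus the mean of the shCtrl libraries (y axis), a point per library, shCtrl in red and shGDPD5 in blue. Receptors lie between -1.01 and -0.81 in shGDPD5 and V-ATPase genes at 0.66 to 0.67, while lysosome genes overlap the controls and all tested genes stay near 0.

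Other genes of the route, listed from general knowledge, are given for each role by count and median, to be read against the 59.7% of all genes called, 29.7% higher and 30.1% lower. Of each list the genes with the smallest adjusted p are named, and where these moved the same way the gene that moved furthest the other way was added after the values were seen. Among 17 further receptors 9 fell (52.9%) and 3 rose (17.6%), with a median log2 fold change of -0.17. CCPG1, a receptor for the endoplasmic reticulum, fell from 99.6 to 22.5 CPM (-2.15, adjusted p = 7.3e-10), and BCL2L13, a mitophagy receptor, also fell (-0.53, adjusted p = 2.44e-06), while TOLLIP, a receptor for ubiquitinated protein, rose (0.38, adjusted p = 0.00332). Among 19 further V-ATPase genes 7 rose (36.8%) and 3 fell (15.8%), with a median of 0.14, and the share called in either direction, 52.6%, was below that of all genes. ATP6V0A1 (0.90, adjusted p = 2.83e-08) and ATP6V0E2 (0.92, adjusted p = 3.85e-06), both of the membrane sector, rose. ATP6V1C2, a stalk subunit isoform, fell by a like amount (-0.92, adjusted p = 0.000551).

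The other roles were mixed. Of 20 further initiation and nucleation genes 7 rose and 7 fell, with RB1CC1, the FIP200 scaffold of the ULK complex, at -0.65 (adjusted p = 5.16e-07) and RUBCN, an inhibitor of the lipid kinase complex, at 0.51 (adjusted p = 1.3e-05). Of 9 further ATG8 and conjugation genes 3 rose and 2 fell, and the proteases ATG4B (0.41, adjusted p = 0.000244) and ATG4A (0.55, adjusted p = 0.000429) were among those that rose, while MAP1LC3B2, the near-identical copy of MAP1LC3B, fell (-0.72, adjusted p = 0.00162). Of 18 fusion genes 6 rose and 6 fell, with the SNARE VAMP8 at 0.66 (adjusted p = 3.96e-06) and the adaptor PLEKHM1 at 0.69 (adjusted p = 5.51e-06). STX17, the SNARE of the autophagosome, had the largest change of that list and fell (-0.69, adjusted p = 5.84e-06). Of 40 further hydrolases 11 rose and 14 fell. CTSC, a dipeptidyl peptidase, was lower (-0.75, adjusted p = 2.62e-07) and SCPEP1, a carboxypeptidase, higher (0.72, adjusted p = 2.96e-07). Of 37 membrane and transport genes 15 rose and 11 fell, and LAMP3 fell furthest of those named, from 40.8 to 4.46 CPM (-3.19, adjusted p = 5.43e-11), while CLN8, needed to move hydrolases out of the endoplasmic reticulum, rose (1.24, adjusted p = 6.83e-09). In all, 19 of 64 further autophagy genes rose and 24 fell (67.2% called, median -0.07), and 33 of 96 further lysosome genes rose and 28 fell (63.5% called, median 0.06). Both shares lie near the 59.7% of all genes and below the 70.2% of genes with a mean of at least 10 CPM.

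**Figure D5:**
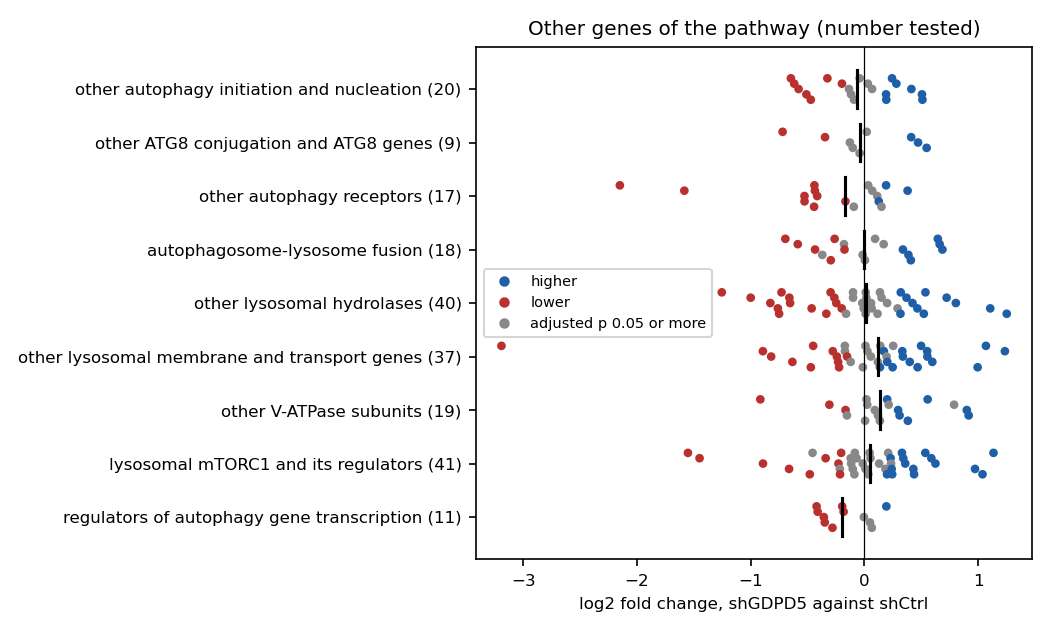
Log2 fold change in shGDPD5 against shCtrl (x axis) of genes of the route that are not among the 47, in rows by list with the number tested. Each point is a gene (blue higher, red lower, grey an adjusted p of 0.05 or more). The black bar is the list's median, lowest for transcription regulators at -0.19 and receptors at -0.17 and highest for V-ATPase subunits at 0.14.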

How the data were processed

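RNA-seq was compared between 3 shCtrl and 3 shGDPD5 libraries, prepared with a SMARTER mRNA kit per the labels. The deposited table holds estimated counts per gene, not normalized, made by the authors. The aligner, counter, strand setting and genome build were not given in the sources used here. Values were rounded to whole counts (largest change 0.5). 370 rows with names made in processing (0.170 to 0.274% of counts) stayed in. The test was the edgeR 4.0.16 (R 4.3.3) quasi-likelihood fit with TMM factors and filterByExpr (minimum count 10), and p-values were adjusted by Benjamini-Hochberg over 16755 genes. DESeq2 1.42.0, limma 3.58.1 (voom), other scalings and filters, a per-gene test on log2(CPM + 1), a replicate block and leaving out each library were alternatives. The edgeR fit was tested on simulated counts in which few genes changed, equally in both directions. It was not tested where most genes differ, as they did here. Exon lengths and coordinates came from GENCODE 29 on GRCh38, matched by gene identifier. Of the 47 members, 19 have an exon overlap with a gene on the other strand, 7 on the same strand, and 6 have named pseudogenes, so their counts may be shared. Those with a same-strand overlap are ATG9A, GABARAP, CD68, MCOLN1, CTSD, GLB1 and HEXA. Within each role up to 3 called members with the largest changes, plus TFEB, TFE3, MITF, MAP1LC3B, SQSTM1, LAMP1 and CTSD, were given in every library, and up to 2 genes of each further list (smallest adjusted p) were named, besides some added after their values were seen. The members and lists were drawn up with earlier results of these data known.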

Additional observations from a re-analysis of the deposited data

How the results depend on the processing

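Of the 40 called members, 32 kept their direction and their side of the threshold under all 14 alternatives, and no member changed direction. The exceptions were ATG13, PIK3C3, ATG14, ATG2A, GABARAP, LAMP1, CTSB and CTSD, with absolute log2 fold changes of 0.13 to 0.40. The per-gene test on log2(CPM + 1) called 5 autophagy genes higher instead of 8. It called fewer genes across the whole table too, 8376 instead of 10006, and 33 members instead of 40. With the study's other fold limits, over 1.5 or under 0.5, 8 members passed as higher instead of 2, and 5 as lower, as before. The upper limit of 1.5 is looser than a log2 change of 1. The share of all genes passing these limits was not computed. Leaving out each library moved the autophagy median log2 fold change between -0.21 and -0.15. Under DESeq2, 39 members and 52.0% of all genes were called. The replicate numbers did not pair the libraries (correlations of deviations -0.070, -0.052 and -0.041), and a fit with replicate block called 39 members and 9645 genes instead of 10006. Of the 17 further receptors DESeq2 called 1 higher instead of 3. Without a filter on low counts 10536 of 38117 genes were called. TFEB rested on 26 to 48 counts a library, the fewest of the members.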

Other observations

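Of 41 genes of lysosomal mTORC1 and its regulators, 15 were higher and 9 lower in shGDPD5 (edgeR, adjusted p under 0.05), with a median log2 fold change of 0.05. The 58.5% called is close to the 59.7% of all genes tested. SESN2, a stress-induced inhibitor of mTORC1, fell from 78.6, 88.4 and 93.2 CPM to 28.5, 30.8 and 29.3 CPM (-1.55, adjusted p = 2.57e-09), and the groups were far apart. RRAGD, a Rag GTPase through which MiT/TFE factors reach the lysosome, fell from 37.3, 36.7 and 34.4 CPM to 19.4, 20.0 and 19.0 CPM (-0.89, adjusted p = 1.57e-07). Others rose by like amounts, among them CASTOR2 (1.14, adjusted p = 1.03e-06) and SESN1, the paralog of SESN2 (1.04, adjusted p = 2.33e-07), both named after their values were seen. Of 11 other regulators of autophagy gene transcription, 7 were lower and 1, CRTC2, higher (72.7% called), with a median of -0.19. DESeq2 called 7 lower and 0 higher. NFE2L2, the antioxidant factor NRF2 (-0.42, adjusted p = 3.38e-05), and FOXO3 (-0.35, adjusted p = 6.88e-05) were among those that fell.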
